A study of Mus musculus with 51 samples.

Results

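The genes that encode the subunits of the proteasome, with its activators, its inhibitor and the chaperones that assemble it, were followed in mouse ventral prostate across genotype, RAD001 treatment and time. Members were chosen by gene symbol: every probe set with a single gene symbol that begins with Psma, Psmb, Psmc, Psmd, Psme, Psmf or Psmg and ends in a number, without the immunoproteasome subunits Psmb8, Psmb9 and Psmb10. This gave 80 probe sets of 43 genes, among 12393 genes with a symbol of their own on the arrays. By role, 15 genes encode subunits of the core, 17 subunits of the regulatory particle, 3 chaperones of the regulatory particle, 3 activators, 1 inhibitor and 4 chaperones of core assembly. Of the 43 genes, 42 passed the filter on dim probe sets in both tables and were tested, and Psma8, a core subunit known from testis, was too dim. The probe set of Psme2 shares its symbol with a second gene and was left out.

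The proteasome is the main protease for proteins that carry ubiquitin chains. Its core is a barrel of stacked alpha and beta rings with the proteolytic sites inside, and the regulatory particle caps the barrel, binds ubiquitin chains, cleaves them off and unfolds the substrate with a ring of ATPases. When proteasome activity falls, the transcription factor encoded by Nfe2l1 is known to raise the genes of core and regulatory particle together, and mTOR signalling has been linked to proteasome levels in other cells.

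All mice were of the FVB strain, 8-10 weeks old and on a standard diet. They were wild type or carried the AKT1 transgene (FVB-AKT1), AKT1 being a kinase upstream of mTOR, and were given placebo or RAD001 (everolimus), an mTOR inhibitor. Wild type mice received placebo only, and their glands gave 4 arrays after 12 h, 4 after 48 h and 3 after 15 d. The numbers for transgenic mice on placebo were 4 (12 h), 5 (48 h), 7 (15 d), 1 (6 d) and 1 (9 d), and on RAD001 they were 5, 4, 6, 3 and 4 in that order. No wild type mouse received RAD001, and the sources used here name neither the dose nor the promoter of the transgene. The design text says that the study set out to separate genes that track exposure to the drug from genes that track response.

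The values are linear Affymetrix intensities, in a larger table of 42 arrays (12 h, 48 h, 15 d; array medians 91.6 to 109.3) and a smaller of 9 arrays (6 d, 9 d; array medians 98.1 to 110.4), so precision is set by how many arrays a group has. The Akt1 probe set used differed between genotypes by 0.17 ± 0.08 log2 units (adjusted p = 0.0932 in limma), and its other probe set by 0.88, which was called. Both Akt1 probe sets were called higher in transgenic glands at 12 h (0.51 and 1.73) and 1 of them at 48 h (0.15 and 1.19), while at 15 d both lay below 0 without a call (-0.15 and -0.28). Akt1 thus does not tell the labelled genotypes apart at 15 d, and whether these probe sets read the transgene was not tested. Luminal epithelial markers were present in every group, and none of the 16 measured was at 0 in all arrays of a group. Summed intensities of those markers ran from 23141 to 28045 in wild type arrays and from 25753 to 42252 in transgenic placebo arrays, and those of 12 smooth muscle markers from 11764 to 18341 and from 6124 to 10097, all in the larger table. In the smaller table, which has no wild type arrays and was fitted apart, the single transgenic placebo arrays had smooth muscle sums of 14280 (6 d) and 12928 (9 d) over 13 markers. In such whole tissue, fewer cells of a type and less RNA per cell cannot be told apart. In 4 arrays more than 500 probe sets were at exactly 0: transgenic placebo 15 d replicates 8 and 9, and, under RAD001, the arrays 6 d replicate 1 and 9 d replicate 3. The planned split of the 15 d arrays, at the largest gap on the first principal component, isolated 1 array, transgenic placebo replicate 9. Another split was therefore added after the data had been seen, with the gap sought without the 15 d arrays just named. It put 0 wild type, 5 transgenic placebo and 4 RAD001 arrays in what is called the second set below. What the sets are is not known. Changes below are differences of log2 intensity with their standard error (SE) from limma, and a gene is called, or said to have risen or fallen, at a Benjamini-Hochberg adjusted p under 0.05 over all 9627 features of the larger table or 9345 of the smaller.

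Under placebo, all members called between genotypes at 12 h were higher in transgenic glands, and for several of them the wild type arrays of 12 h were the low group. At 12 h, 11 members were higher in transgenic glands and 0 were lower, against 9.62% of all features higher and 11.0% lower (20.6% in either direction). These were the regulatory particle ATPases Psmc1, Psmc4 and Psmc5, the non-ATPase subunits Psmd2, Psmd7, Psmd8, Psmd13 and Psmd14, the chaperone Psmd5 and the catalytic core subunits Psmb5 and Psmb7. In wild type placebo glands 11 members were also higher at 48 h than at 12 h and 0 lower (8.64% and 8.50% of all features, 17.1% in all), and 14 were higher at 15 d than at 12 h and 0 lower (10.4% and 10.6%, 21.0% in all). Transgenic placebo glands gave 0 members called between 48 h and 12 h in limma, with 0% of all features called and 2 members at an unadjusted p under 0.05. Psmb7, Psmd7 and Psmd8, higher in transgenic glands at 12 h, were not called between 48 h and 12 h in wild type glands. The genotype comparison at 12 h and both wild type time comparisons share the wild type arrays of 12 h.

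Psmc4, an ATPase of the ring that unfolds substrates, had intensities of 201, 186, 235 and 230 in the wild type arrays of 12 h, against 354, 380, 362 and 323 in wild type at 48 h and 265, 294 and 317 at 15 d. Transgenic placebo arrays had 385, 402, 296 and 390 at 12 h and 436, 386, 323, 329 and 313 at 48 h, and from 348 to 427 with a median of 380 at 15 d. All 4 wild type arrays of 12 h lay below every other array of the larger table. Transgenic exceeded wild type by 0.79 ± 0.11 at 12 h (adjusted p = 1.52e-06), and wild type at 48 h exceeded wild type at 12 h by 0.74 ± 0.11 (adjusted p = 5.86e-05). At 48 h the genotypes differed by 0.00 ± 0.10, and at 15 d transgenic was again higher by 0.38 ± 0.10 (adjusted p = 0.00936). The 15 d call was lost with the replicate block and with the second set of 15 d arrays as a block or left out. It was also lost without wild type 15 d replicate 1 (adjusted p = 0.0988 in limma). The second set holds 5 of the 7 transgenic placebo arrays of 15 d and 0 wild type arrays.

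Psmd13, a subunit of the lid of the regulatory particle, read 178, 168, 213 and 143 in wild type at 12 h and 282, 340, 314 and 285 at 48 h. In transgenic placebo glands it read 271, 304, 282 and 312 at 12 h and 319, 348, 262, 226 and 277 at 48 h. The wild type arrays of 12 h were again the low group and overlapped neither the transgenic arrays of 12 h nor the wild type arrays of 48 h. The log2 difference was 0.75 ± 0.13 between genotypes at 12 h (adjusted p = 5.18e-05) and 0.81 ± 0.13 between the wild type times (adjusted p = 0.00015), and both of its probe sets were called with the same sign in the latter.

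Psmd14, the deubiquitinase that removes ubiquitin chains from substrates, read 335, 363, 412 and 381 in wild type at 12 h, 524, 559, 503 and 522 at 48 h and 428, 498 and 453 at 15 d. Transgenic placebo arrays read 549, 528, 499 and 510 at 12 h, 425, 509, 436, 460 and 391 at 48 h, and from 549 to 712 with a median of 618 at 15 d. The sign of the genotype difference therefore changed with time: 0.49 ± 0.09 at 12 h, -0.25 ± 0.09 at 48 h (adjusted p = 0.0316) and 0.43 ± 0.09 at 15 d. Only at 48 h did the genotypes overlap, where the highest transgenic array (509) exceeded the lowest wild type array (503). The test of a genotype effect that differs between 12 h, 48 h and 15 d gave an adjusted p of 0.000476 for Psmd14. Its call at 48 h was lost under median scaling, with only the compared groups fitted, with a replicate block and when any of 6 arrays was left out (adjusted p up to 0.0987). Its genotype call at 15 d was lost without the second set of 15 d arrays.

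The other members that rose in wild type glands between 12 h and 48 h were Psmc1 (0.70), Psmd12 (0.48), Psmc3 (0.49), Psmd5 (0.47), Psmd6 (0.46), Psmc5 (0.41), Psmd2 (0.30) and Psmb5 (0.30), all log2 changes with SE from 0.08 to 0.16. The call of Psmd2 (adjusted p = 0.048) was lost in 4 settings and in 29 of 42 fits with an array left out, where its adjusted p reached 0.168, and that of Psmb5 was lost with only the compared groups fitted and in 1 such fit (adjusted p = 0.0901). Among them, Psmb5 carries the chymotrypsin-like site of the core, the main target of clinical proteasome inhibitors, and Psmd2 is a scaffold of the base. The wild type arrays of 12 h overlapped neither the wild type arrays of 48 h nor the transgenic arrays of 12 h for Psmb5, Psmc4, Psmc5, Psmd13, Psmd14, Psmd2 and Psmd5. How many of all features were apart in the same way was not counted, so this list cannot set the members apart from other features. Both comparisons share the wild type arrays of 12 h, so being apart in both is not independent. All 17 regulatory particle subunits had changes above 0 between these times and 9 were called, with a median of 0.36. Of the core subunits 12 of 14 lay above 0 and 1 was called, with a median of 0.17, and the median of all features was -0.01.

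**Figure D1:**
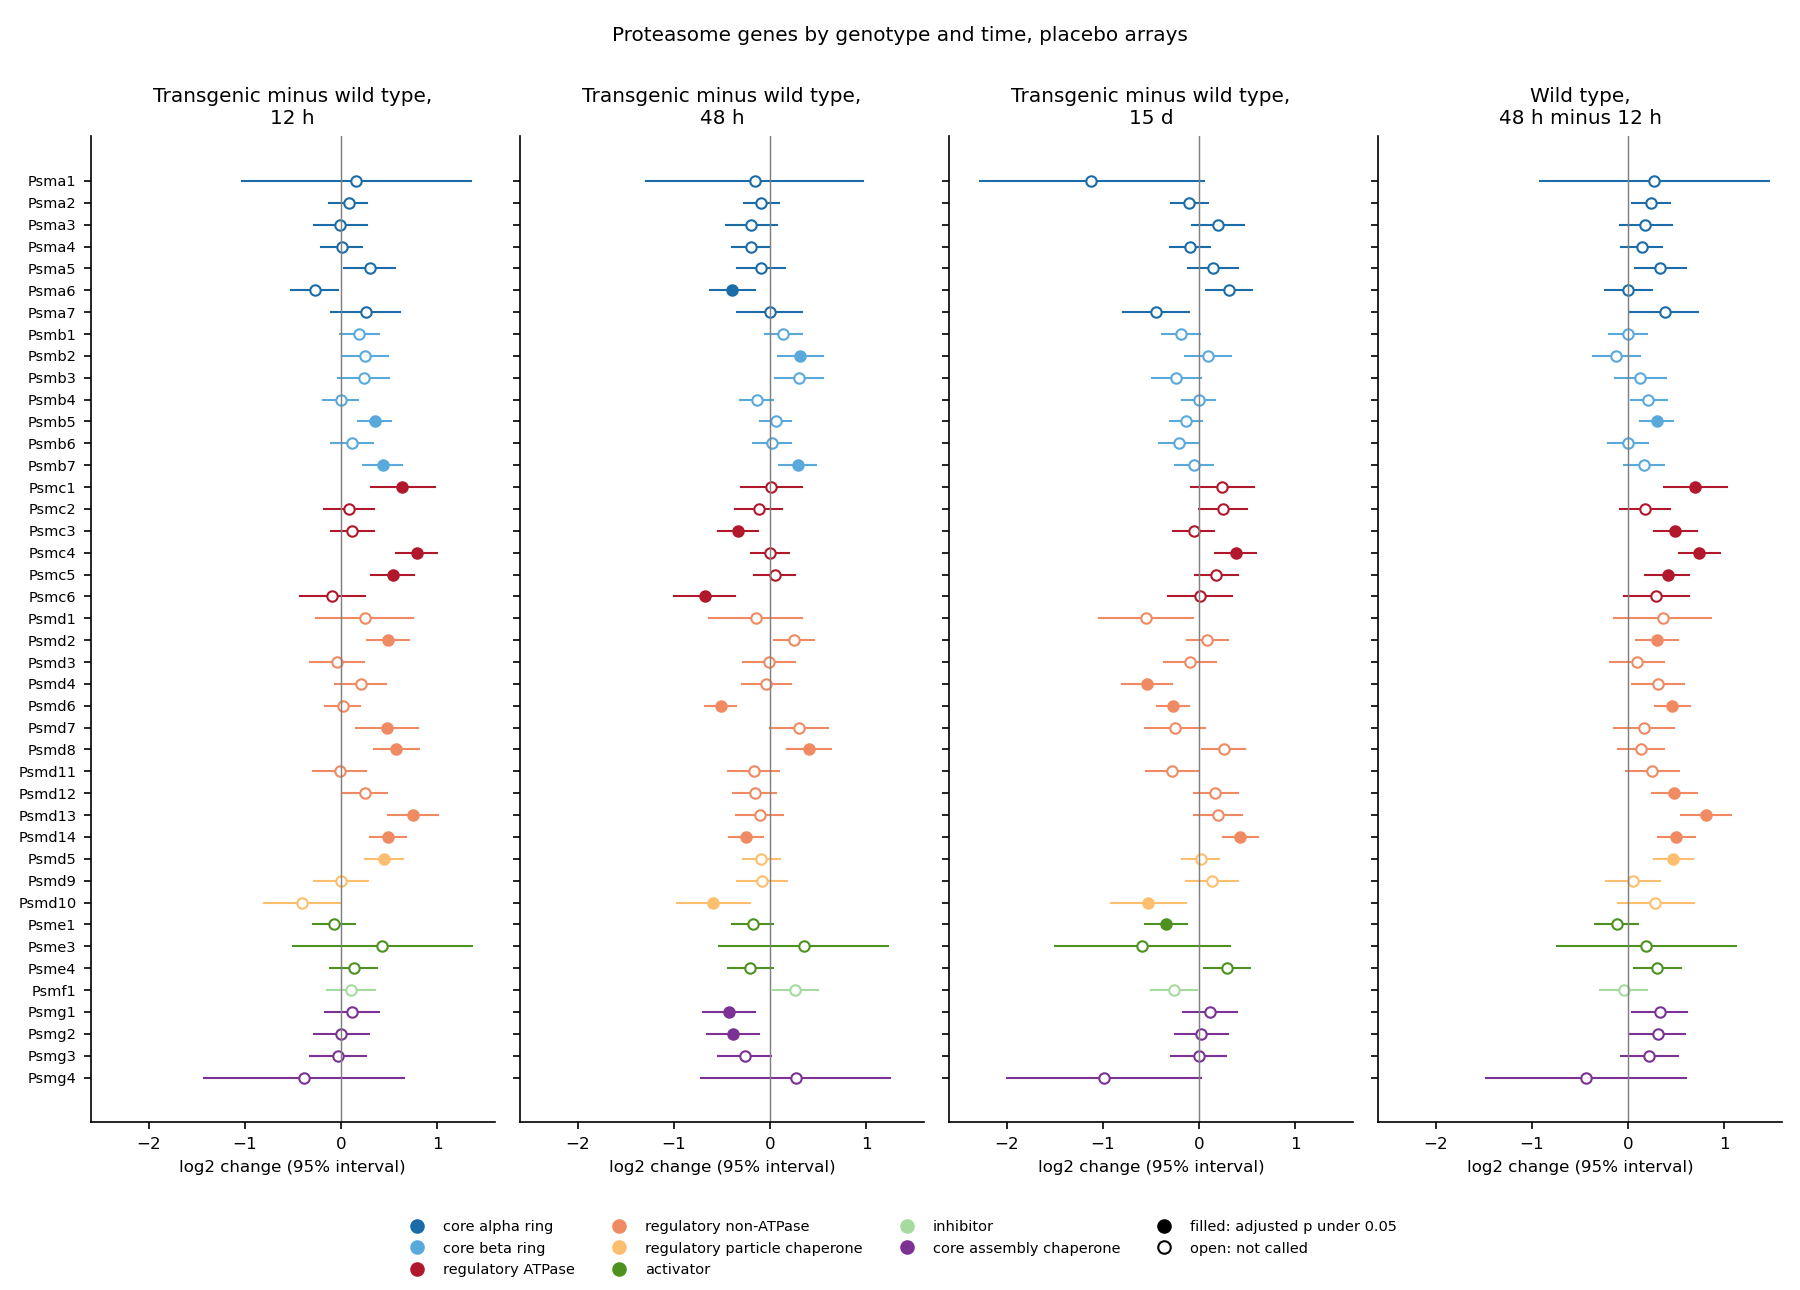
Log2 change (x axis, with its 95% interval) of each of the 42 tested members (rows, coloured by role) between genotypes at 12 h, 48 h and 15 d and between 48 h and 12 h in wild type placebo glands; filled points passed an adjusted p of 0.05. At 12 h, 11 filled points lie above 0 and 0 below, at 48 h 3 above and 8 below, and the 11 filled points of the last panel are mostly in the regulatory particle.

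A score per array, the mean deviation of the members from their means over the table, places core and regulatory particle side by side. For the regulatory particle, the wild type arrays of 12 h averaged -0.34 ± 0.12 (SD, n = 4) and ran from -0.45 to -0.21. The lowest array of any other group stood at -0.17 (transgenic placebo, 48 h). For the core the same 4 arrays ran from -0.26 to 0.00 and overlapped the other groups. The regulatory particle score minus the core score ran from -0.25 to -0.17 in these 4 arrays, and in all other groups of the larger table it was -0.16 or higher. The scores carry no test, since the members share libraries and the lists were chosen with results of these data known. Summed intensities of smooth muscle and luminal markers overlapped between these arrays and the wild type arrays of 48 h, with 0 markers of either list called between them: they were 14102 to 18341 and 23141 to 26386 at 12 h, and 11764 to 16475 and 23346 to 27345 at 48 h. Of the luminal markers 13 of 16 nonetheless lay above 0 between these times (median 0.17), and of the smooth muscle markers 10 of 12 lay below 0 (median -0.20). Of 8 fibroblast and 7 leukocyte markers 1 each was called lower at 48 h. The part of these shifts in the members' changes was not tested. The labels name no array date. Handling and time thus cannot be told apart for these 4 arrays or for the wild type arrays of 48 h. On the first principal component the wild type arrays of 48 h stood at -3.5 to 2.1 and those of 12 h at -25.2 to -15.1. Transgenic placebo arrays stood there at -22.6 to -14.1 (12 h) and -23.7 to -13.2 (48 h).

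**Figure D2:**
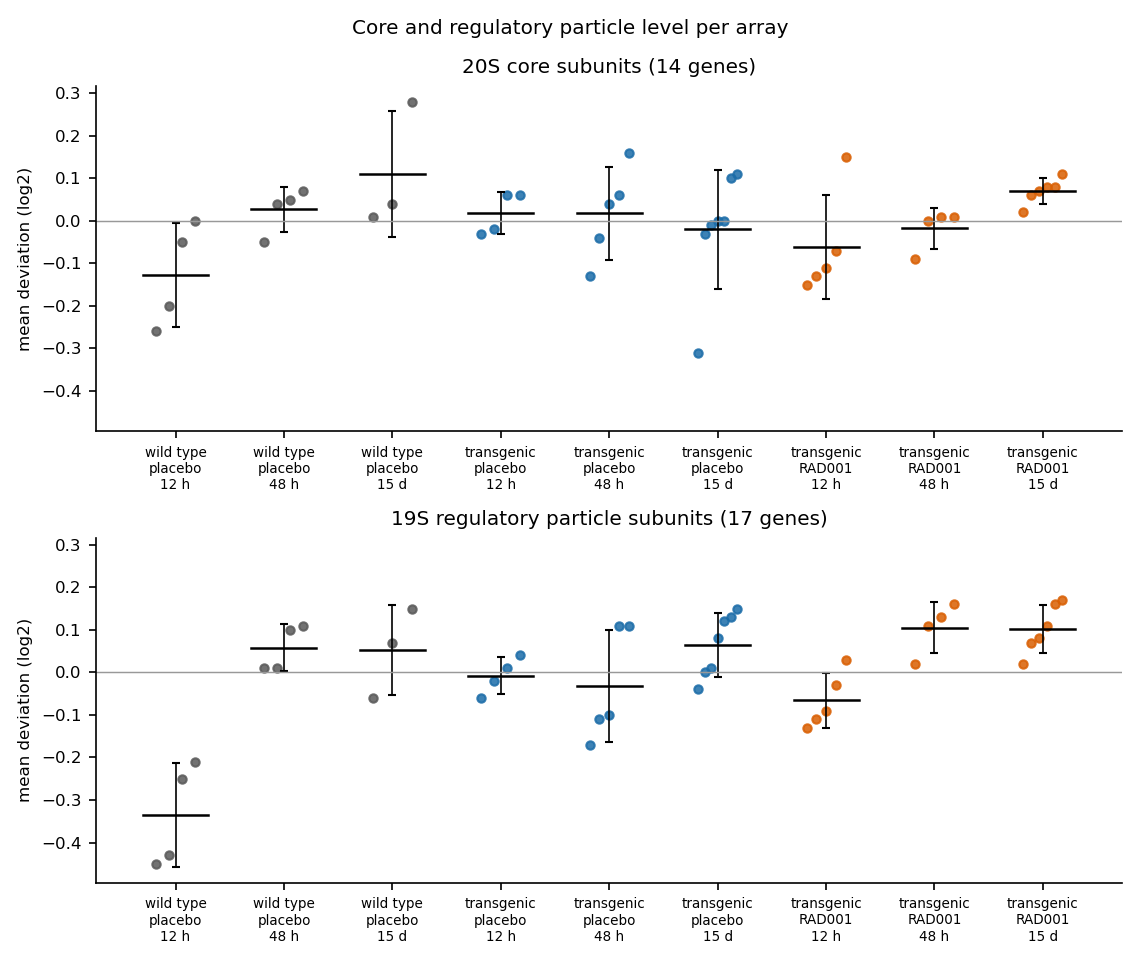
Mean log2 deviation per array (y axis) for 14 core subunits (top) and 17 regulatory particle subunits (bottom) in the 9 groups of the larger table; each point is an array, sorted by value within its group, and bars are the mean and SD. The 4 wild type arrays of 12 h lie between -0.45 and -0.21 for the regulatory particle, below all other arrays, and between -0.26 and 0.00 for the core, within the range of other groups.

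Promoters are shown because regulatory particle members moved together between the wild type times. RefSeq promoter windows of build GRCm38.p6, from 250 bases before to 50 after the start, were at hand for 35 of the 43 members. Both strands were searched, and a gene was counted if any of its windows held the letters. The letters ACTTCCG stood in 14 of those 35 members (40%) and in 7.2% of all 27025 genes with a window. They stood in 8 of 14 regulatory particle genes (57.1%), in 3 of 11 core genes (27.3%), and in 6 of the 10 members with a window that rose in wild type glands between 12 h and 48 h (60%). Of the other members with a window 8 of 25 held them (32%). A link between the letters and the rise was not tested. The letters were chosen after the sequences had been seen, and they overlap those of CGGAAG, which stood in 60% of members and in 18.8% of all genes. CGGAAG stood in 92.9% of regulatory particle and 36.4% of core genes, and in 70% of the members that rose and 56% of the others. The antioxidant response letters TGACNNNGC, related to the site bound by the Nfe2l1 product, stood in 17.1% of members and in 14% of all genes, and CCAAT in 34.3% and 41.1%. The letters CACGTG stood in 8.57% of members and 8.09% of all genes, TGANNNNGC in 54.3% and 45%, and TGACGTCA in 0% and 2.03%. A match describes the letters and is no binding site. ACTTCCG also stood upstream of the start in Psma4, Psmc2, Psmd8 and Psme4, whose probe sets used here were not called between the wild type times. The stretches upstream of the start of 5 members that rose are printed along the gene's own strand, with ACTTCCG or its reverse complement in capitals.
Psmc1, chr12:100110143-100110201, plus strand: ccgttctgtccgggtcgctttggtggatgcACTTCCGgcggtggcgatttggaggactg
Psmd12, chr11:107479480-107479527, plus strand: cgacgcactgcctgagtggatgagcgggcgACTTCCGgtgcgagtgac
Psmd13, chr7:140882273-140882339, plus strand: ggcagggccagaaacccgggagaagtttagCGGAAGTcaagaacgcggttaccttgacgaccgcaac
Psmd14, chr2:61711549-61711615, plus strand: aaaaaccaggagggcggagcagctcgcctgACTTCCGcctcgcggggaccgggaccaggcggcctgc
Psmd6, chr14:14120953-14121019, minus strand: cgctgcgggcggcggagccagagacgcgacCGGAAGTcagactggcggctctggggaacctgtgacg

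At 48 h, 3 members were higher and 8 lower in transgenic glands (12.2% and 14.4% of all features, 26.6% in all), a count in all near the background. Of the members called at 12 h, Psmd14 was called in the opposite direction at 48 h, and Psmb7 and Psmd8 in the same. Lower were the ATPases Psmc3 (-0.33) and Psmc6 (-0.68), the lid subunits Psmd6 (-0.51) and Psmd14, the chaperone Psmd10 (-0.59), the alpha ring subunit Psma6 (-0.39) and the core assembly chaperones Psmg1 (-0.43) and Psmg2 (-0.38). Higher were Psmb2 (0.31) and Psmb7 (0.29), the beta subunit with the trypsin-like site, and the lid subunit Psmd8 (0.41). At 15 d, Psmc4 and Psmd14 were higher and Psmd4, Psmd6, Psmd10 and Psme1 lower (9.07% and 10.9% of all features, 19.9% in all). With the second set of 15 d arrays left out 0 members were called there, but that fit lacks 5 of the 7 transgenic placebo arrays of 15 d. The share of all features called in it is not given here. The genotype effect differed between 12 h, 48 h and 15 d for 15 members, against 20.4% of all features: Psma6, Psmb3, Psmb5, Psmb7, Psmc4, Psmc5, Psmc6, Psmd4, Psmd5, Psmd6, Psmd7, Psmd13, Psmd14, Psmf1 and Psmg1. That count was 6 without the second set of 15 d arrays.

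Averaged over 12 h, 48 h and 15 d, 9 members were higher in transgenic glands and 4 lower, against 14.2% of all features higher and 19.2% lower. The 13 called members are thus near the background share of 33.5% for either direction. In the regulatory particle 7 of 17 subunits were higher (Psmc1, Psmc4, Psmc5, Psmd2, Psmd8, Psmd13 and Psmd14) and 2 lower (Psmc6 and Psmd6), with a median of 0.09. Of 14 core subunits 2 were higher (Psmb2 and Psmb7) and 0 lower, with a median of -0.01, and the median of all features was -0.05. The chaperone Psmd10 and the activator Psme1 were lower. The other 29 tested members were not called and ran from -0.37 (Psma1 and Psmg4) to 0.18 (Psmd7). Both Psma1 and Psmg4 were at the floor on transgenic placebo 15 d replicate 9, which enters that value. With the 12 h arrays left out of the average, 1 member was higher (Psmd8) and 5 were lower (Psmc6, Psmd10, Psmd4, Psmd6 and Psme1), against 10.2% of all features higher, 13.0% lower and 23.2% in either direction. The rise of Psmc1, Psmc4, Psmc5, Psmd2, Psmd13, Psmd14, Psmb2 and Psmb7 in the average was not called then.

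Psmd8, a subunit of the lid, was the only member still called higher in the average of 48 h and 15 d. It read 354, 371, 394 and 320 in wild type at 12 h, 378, 422, 360 and 415 at 48 h and 347, 412 and 472 at 15 d. Transgenic placebo arrays read 542, 556, 471 and 571 at 12 h, 558, 605, 472, 476 and 505 at 48 h, and from 421 to 540 with a median of 506 at 15 d. Every transgenic placebo array exceeded every wild type array of its time at 12 h and 48 h, and the groups overlapped at 15 d. Its averaged change was 0.41 ± 0.07 (adjusted p = 5.79e-06), and 0.33 ± 0.08 from 48 h and 15 d alone (adjusted p = 0.00191).

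Psmd10, the ankyrin repeat chaperone also known as gankyrin, was lower in transgenic glands. Wild type arrays read 247, 300, 287 and 254 at 12 h, 302, 345, 300 and 381 at 48 h and 320, 272 and 349 at 15 d. Transgenic placebo arrays read 189, 176, 281 and 192 at 12 h, 200, 208, 212, 217 and 264 at 48 h, and from 151 to 275 with a median of 237 at 15 d. The groups were separate at 48 h, and overlapped at 12 h through a single transgenic array and at 15 d. The averaged change was -0.51 ± 0.11 (adjusted p = 0.000441), and -0.56 ± 0.13 from 48 h and 15 d alone.

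Psmd6, a lid subunit, was lower by -0.26 ± 0.05 on average (adjusted p = 9.97e-05), with 770, 754, 837 and 778 in wild type at 48 h against 517, 596, 511, 549 and 577 in transgenic placebo arrays. At 12 h wild type read 549, 504, 621 and 614 and transgenic placebo 541, 560, 650 and 561, which overlap. Its other probe set was called in the opposite direction on average (0.30 ± 0.12) and at 15 d (1 ± 0.21, against -0.27 ± 0.09), so there the direction for Psmd6 depends on the probe set. At 48 h both probe sets lay below 0 (-0.51 and -0.40), and 1 was called. Psme1, a subunit of the PA28 activator induced by interferon, fell by 0.20 ± 0.06 on average (adjusted p = 0.0109). It read 753, 616 and 615 in wild type at 15 d and from 463 to 603 with a median of 510 in transgenic placebo arrays of 15 d, which did not overlap. The averaged call of Psme1 was lost from 12 h and 48 h alone. Its 15 d call was lost in 5 settings, among them quantile normalization and the second set of 15 d arrays as a block. Psmc6, an ATPase, differed by -0.25 ± 0.09 (adjusted p = 0.0349) and mainly at 48 h, where wild type read 483, 453, 391 and 491 and transgenic placebo 268, 337, 267, 230 and 327, which are apart. Its averaged call was lost under quantile normalization, under median scaling and in 7 of 42 fits with an array left out (adjusted p up to 0.106). Luminal epithelial markers moved with genotype as well: 8 of 16 rose and 0 fell on average, with a median of 0.44. Of 12 smooth muscle markers 10 fell and 0 rose, with a median of -1.01, and of 8 fibroblast markers 6 fell and 0 rose. Their part in the differences of these members was not tested.

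**Figure D3:**
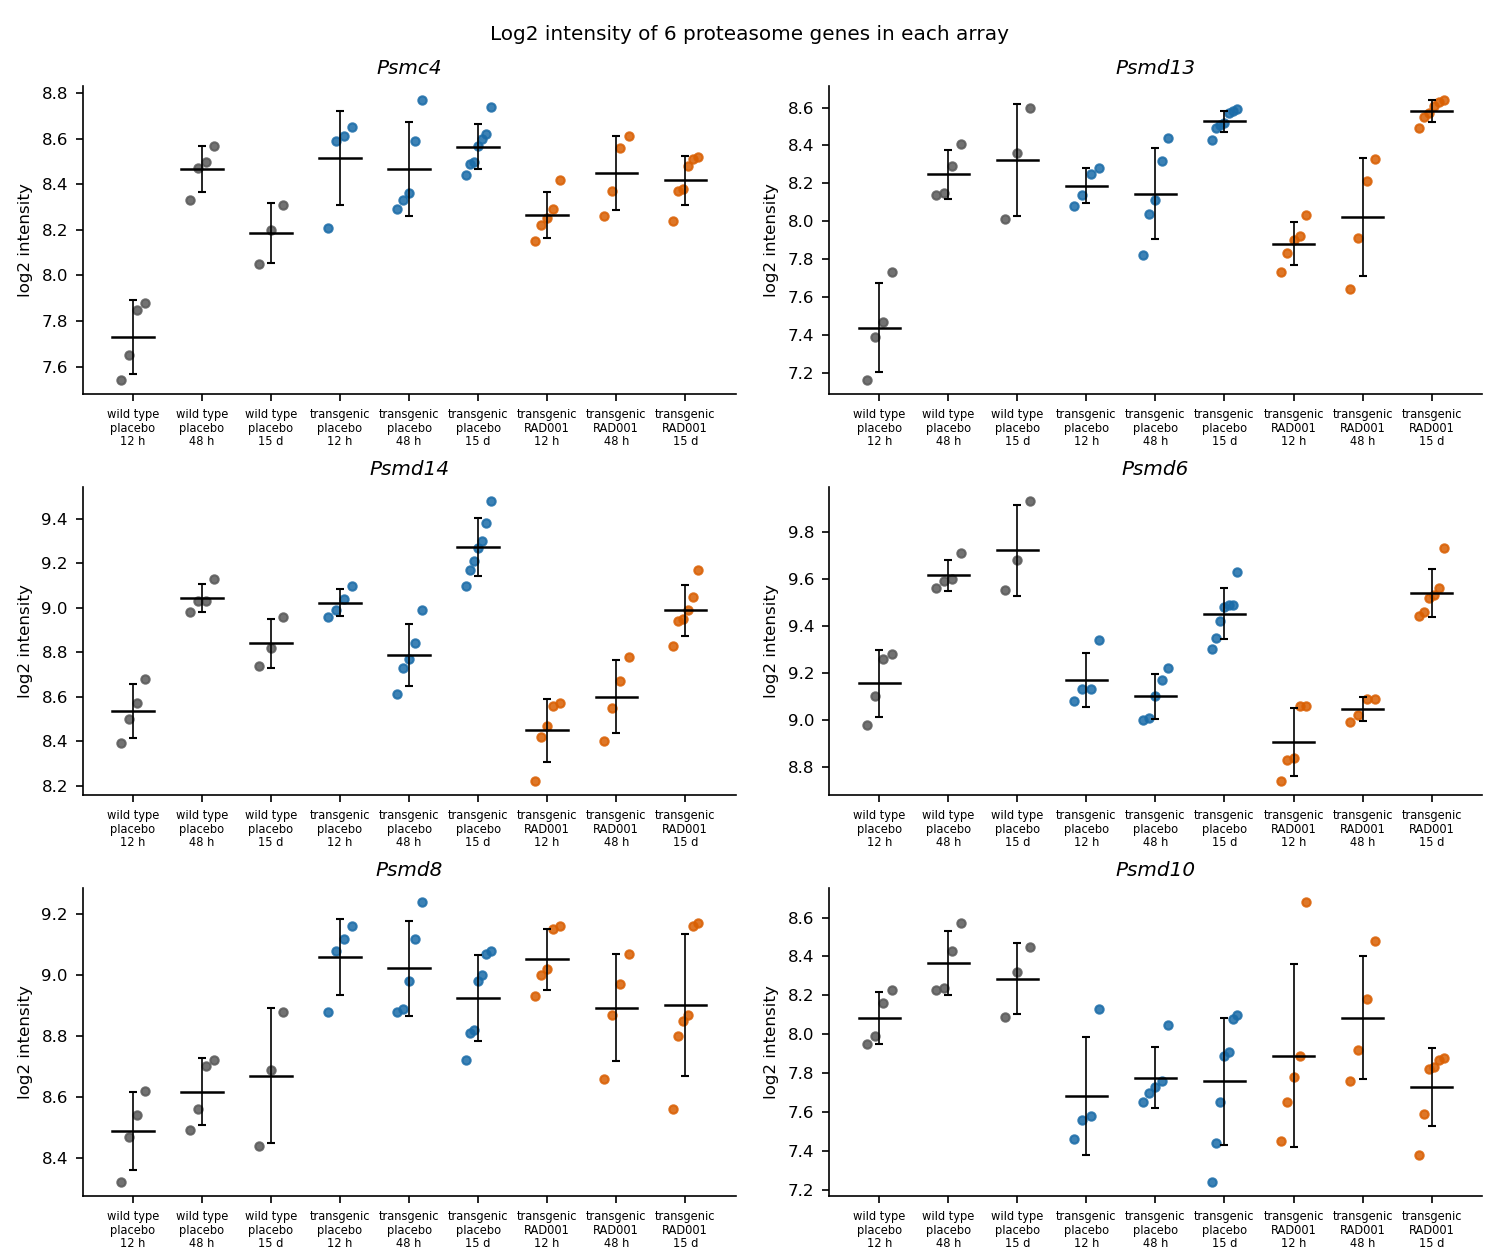
Log2 intensity (y axis) of Psmc4, Psmd13, Psmd14, Psmd6, Psmd8 and Psmd10 in each of the 42 arrays of the larger table, by group; points are arrays sorted by value within a group, bars the mean and SD. Psmc4 and Psmd13 are lowest in wild type at 12 h, Psmd8 is higher and Psmd10 lower in transgenic placebo than in wild type arrays, and Psmd14 is lower under RAD001 than under placebo at 12 h.

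RAD001 was compared with placebo in transgenic glands at each time, to ask which members follow the drug. Few were called: at 12 h 0 members rose and 1 fell (0.644% and 0.831% of all features, 1.48% in all), at 48 h 2 rose and 1 fell (2.02% and 1.53%, 3.54% in all), and at 15 d 1 rose and 1 fell (2.51% and 3.26%, 5.78% in all). At 6 d and 9 d together limma called 0 members, with 0.888% of all features called and 5 members at an unadjusted p under 0.05. The shares of members called are near those of all features. The median change was -0.01 at 12 h and at 48 h, 0.05 at 15 d and -0.02 at 6 d and 9 d. In the test of a drug effect that changes with time, limma called 0 members (0.499% of all features), with 8 at an unadjusted p under 0.05.

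Psmd14 fell under RAD001 at 12 h and at 15 d. At 12 h it read 342, 355, 376, 380 and 299 under RAD001 against 549, 528, 499 and 510 under placebo, with no overlap, a difference of -0.58 ± 0.09 (adjusted p = 0.0011). The RAD001 arrays of 12 h lay at the level of the wild type placebo arrays of 12 h, 335 to 412. At 48 h the arrays read 408, 338, 440 and 375 against 425, 509, 436, 460 and 391, which overlap (-0.19 ± 0.09, adjusted p = 0.261). At 15 d RAD001 arrays ran from 456 to 578 with a median of 503 and placebo arrays from 549 to 712 with a median of 618, which overlap, a difference of -0.28 ± 0.07 (adjusted p = 0.014). At 6 d it read 587, 476 and 584 under RAD001 against 501 in the single placebo array, and at 9 d 511, 473, 393 and 453 against 581. The call at 12 h held in every setting tried and with each array left out, where its highest adjusted p was 0.0109. The call at 15 d was lost without the second set of 15 d arrays and without the arrays rich in zeros (more than 500 at 0).

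Psmc5, an ATPase of the regulatory particle, rose at 48 h. It read 770, 727, 728 and 822 under RAD001 against 636, 572, 516, 530 and 454 under placebo, with no overlap and a difference of 0.50 ± 0.10 (adjusted p = 0.00488). At 12 h the arrays overlapped at 676, 673, 676, 548 and 578 against 590, 576, 539 and 577 (0.14 ± 0.10). At 15 d RAD001 arrays ran from 500 to 719 with a median of 620 and placebo arrays from 465 to 639 with a median of 519 (0.20 ± 0.09, adjusted p = 0.18). In the smaller table Psmc5 read 808, 692 and 757 under RAD001 at 6 d against 509, and 661, 589, 689 and 659 at 9 d against 540. The averaged difference there was 0.41 ± 0.11 with an adjusted p of 0.164. Every RAD001 array lay above the placebo array of its day, but each day has 1 placebo array.

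Psmc3, another ATPase of that ring, read 554, 548, 474 and 628 under RAD001 at 48 h and 497, 493, 416, 372 and 355 under placebo, which overlap (0.38 ± 0.10, adjusted p = 0.0339). Its call was lost when only the groups compared were fitted, with the replicate block (adjusted p = 0.0532) and when any of 6 arrays was left out (adjusted p up to 0.148). Psmb7 fell at 48 h, with 786, 1002, 764 and 975 under RAD001 and 1180, 1226, 1047, 1165 and 1153 under placebo, and the groups did not overlap (-0.40 ± 0.10, adjusted p = 0.0139). That call was lost with only the compared groups fitted (adjusted p = 0.0767) and without RAD001 48 h replicate 1 (0.0537) or replicate 4 (0.0766). At 6 d and 9 d it read 797, 734 and 765 against 866 and 648, 628, 728 and 762 against 916, a difference of -0.29 ± 0.11 with an adjusted p of 0.37. Among members that were not called at 48 h, the ATPase Psmc1 read 564, 544, 585 and 545 under RAD001 and 472, 409, 391, 358 and 336 under placebo (0.52 ± 0.15, adjusted p = 0.0513), and the alpha ring subunit Psma6 read 666, 636, 729 and 669 against 495, 564, 538, 434 and 555 (0.39 ± 0.12, adjusted p = 0.0506). Neither pair of groups overlapped. Of the 6 ATPases 5 lay above 0 at 48 h, with a median of 0.31, while the 11 non-ATPase subunits had a median of -0.01 and the 14 core subunits of -0.06. The count of called members at 48 h was 5 without the arrays rich in zeros and 6 without the second set of 15 d arrays.

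Psmd4, the subunit that binds ubiquitin chains through its interaction motifs, rose at 15 d. RAD001 arrays ran from 664 to 1034 with a median of 763 and placebo arrays from 438 to 769 with a median of 554, and the groups overlapped (0.45 ± 0.10, adjusted p = 0.00602). Wild type placebo arrays of 15 d read 839, 790 and 944, above all transgenic placebo arrays of that time (-0.54 ± 0.13, adjusted p = 0.00389). At 12 h Psmd4 read 906, 763, 961, 790 and 777 under RAD001 against 680, 732, 723 and 622, and at 48 h 867, 806, 1038 and 1010 against 789, 740, 664, 755 and 672. Neither pair overlapped, with differences of 0.28 ± 0.13 (adjusted p = 0.334) and 0.36 ± 0.13 (adjusted p = 0.113). At 6 d and 9 d it read 1129, 1025 and 1062 against 712 and 951, 797, 1080 and 855 against 779, a difference of 0.41 ± 0.12 (adjusted p = 0.257). All 3 probe sets of Psmd4 lay above 0 at 12 h, 48 h and 15 d, whereas at 6 d and 9 d they ran from -0.11 to 0.41. With all probe sets tested apart 1 of the 3 was called at 48 h, which was not the one used (0.61 ± 0.17, adjusted p = 0.0413). The 3 changes at 48 h ran from 0.36 to 1.07. The 15 d call was lost without the second set of 15 d arrays and without the arrays rich in zeros.

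**Figure D4:**
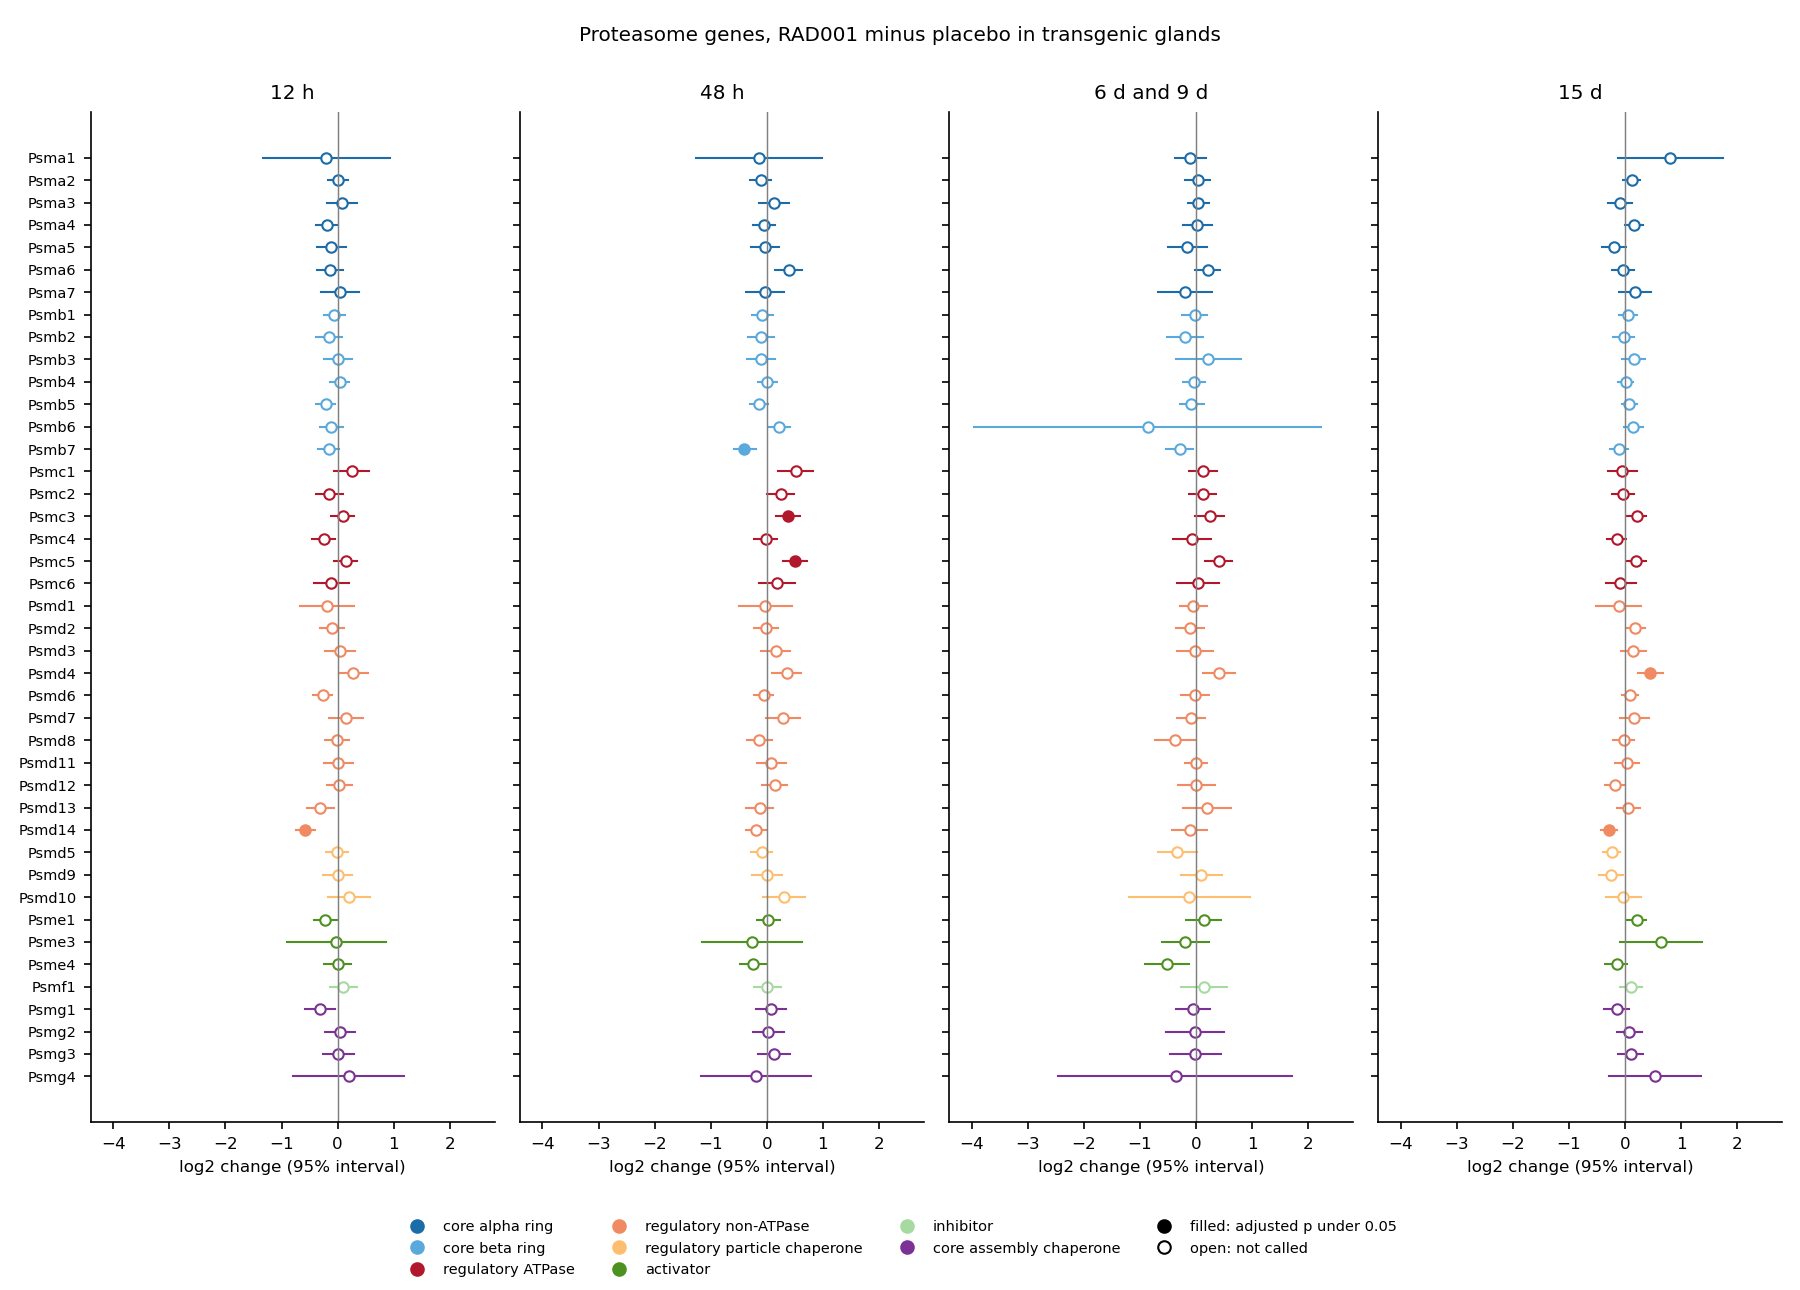
Log2 change under RAD001 against placebo (x axis, with its 95% interval) of each of the 42 tested members in transgenic glands at 12 h, 48 h, 6 d and 9 d averaged, and 15 d; rows and colours are genes and roles, and filled points passed an adjusted p of 0.05. The filled points are Psmd14 at 12 h, Psmb7, Psmc3 and Psmc5 at 48 h, none at 6 d and 9 d, and Psmd14 and Psmd4 at 15 d; the wide intervals of Psma1, Psmb6, Psme3 and Psmg4 belong to genes with an array listed at 0.

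The smooth muscle markers moved with RAD001 too: all 12 measured lay above 0 at 12 h and at 48 h, with medians of 0.52 and 0.56 and 1 and 2 called, and 4 were called at 15 d. Their summed intensity at 48 h was 9306 to 13466 under RAD001 and 6422 to 9234 under placebo, and that of luminal markers 27273 to 36706 and 34742 to 42252. Their part in the changes of Psmd14, Psmc5, Psmc3, Psmb7 and Psmd4 was not tested.

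Of the other genes of the pathway 24 of 35 listed were measured. On average over the times 6 were higher and 4 lower in transgenic glands, against 14.2% and 19.2% of all features (33.5% in all). Under RAD001 limma called 0 at 12 h, 1 at 48 h, 1 at 15 d and 0 at 6 d and 9 d, against 1.48%, 3.54%, 5.78% and 0.888% of all features, with 3, 5, 2 and 2 at an unadjusted p under 0.05. Nfe2l1, the factor that drives proteasome genes, read 621, 492, 535 and 690 in wild type and 1170, 1297, 925 and 1224 in transgenic placebo arrays at 12 h, with no overlap. At 48 h it read 676, 605, 534 and 602 against 987, 974, 958, 1177 and 836, again apart, and at 15 d 641, 715 and 714 against a range from 496 to 1101. The averaged change was 0.66 ± 0.09 (adjusted p = 5.85e-07). Between 48 h and 12 h in wild type glands Nfe2l1 differed by 0.06 ± 0.16 (adjusted p = 0.855). Nfe2l1 acts as a processed protein, which these arrays do not measure. RAD001 moved Nfe2l1 by -0.13 ± 0.15 at 12 h, -0.04 ± 0.15 at 48 h and -0.06 ± 0.13 at 15 d, none of which was called.

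Uchl5, a deubiquitinase that docks on the regulatory particle, read 263, 298, 252 and 257 in wild type at 12 h and 372, 472, 321 and 432 at 48 h. In transgenic placebo glands it read 516, 544, 418 and 573 at 12 h and 469, 505, 483, 466 and 352 at 48 h. The genotypes were apart at 12 h and overlapped at 48 h, and the averaged change was 0.61 ± 0.07 (adjusted p = 2.36e-08). Under RAD001 at 48 h it read 564, 647, 712 and 650, above all placebo arrays (0.51 ± 0.12, adjusted p = 0.0134). Pomp, the maturation factor of the core, was higher by 0.24 ± 0.06, Ecpas, a proteasome-binding scaffold, by 0.22 ± 0.08, and the delivery factors Ufd1 and Ubqln2 by 0.35 ± 0.07 and 0.26 ± 0.10. Nploc4 (-0.22), Faf1 (-0.22), Ubqln1 (-0.29) and Ubqln4 (-0.24), which carry or handle ubiquitinated proteins, were lower. Ufd1 fell under RAD001 at 15 d (-0.53 ± 0.10, adjusted p = 0.00059). None of the 3 immunoproteasome subunits was called between genotypes on average, with values from -0.40 to -0.06 and 1 at an unadjusted p under 0.05, while Psmb8, whose product replaces a catalytic core subunit under interferon, was lower in transgenic glands at 48 h (-0.39 ± 0.14, adjusted p = 0.0349) and higher at 48 h than at 12 h in wild type glands (0.64 ± 0.15, adjusted p = 0.00293).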

How the data were processed

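Total RNA of ventral prostate was extracted with Trizol and hybridised as biotinylated cRNA, per the labels' protocols. The authors deposited linear intensities, whose scaling the sources used here do not describe. Deposited intensities below 16 were set to 16 and converted to log2 here. Probe sets under the 40th percentile of mean log2 intensity were left out, and the probe set with the highest mean stood for its gene. Both tables were fitted apart with limma 3.58.1 in R 4.3.3 (lmFit, and eBayes with trend), all groups of a table sharing the spread, with Benjamini-Hochberg adjustment over all features. The labels call the arrays biological replicates. Any member could be named, first those of smallest p in each role and all called members where 10 or fewer, as could any measured gene of the pathway lists; other cell types are given as lists. Members and lists were chosen with earlier results of these data known. The immunoproteasome subunits were left out by the rule. On simulated data, 95% of features changed by 1 log2 unit were recovered for the averaged genotype comparison, and 80%, 73%, 85% and 51% for RAD001 at 12 h, 48 h, 15 d, and 6 d and 9 d. Of features changed by 0.5, nearer the size of most member changes, 65% were recovered for genotype and 33%, 30%, 47% and 5% for RAD001. The simulation changed 100 features of each size among 9627 or 9345, on independent noise without array sets. In the data 33.5% of all features were called for the averaged genotype, so these shares need not hold there. Alternatives covered floor, filter, scaling, probe sets, samples fitted, array weights, a replicate block, array sets and each array left out.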

Additional observations from a re-analysis of the deposited data

Results flagged for a closer look

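Of 396 sets of values examined within groups of 4 to 10 arrays, 23 held an array far from the others, and chance alone gives about 1 in 20. In log2 intensity, transgenic placebo arrays of 15 d stood out for Psma1 (replicate 9 at 4, nearest 9), Psmg4 (replicate 9 at 4, nearest 7.85), Psme3 (replicate 4 at 4, nearest 7.48), Psmd2 (replicate 9 at 8.9, nearest 9.38) and Psmb1 (replicate 4 at 9.92, nearest 10.17). At 12 h they stood out for Psmc4 (replicate 3 at 8.21) and Psmd9 (replicate 3 at 7.48), and at 48 h for Psma3 (replicate 4 at 9.4) and Psmd10 (replicate 5 at 8.05). RAD001 arrays stood out at 12 h for Psmb6 (9.69), Psmc3 (8.95) and Psmd9 (6.6), at 48 h for Psmb1 (10.39), at 15 d for Psmd3 (9.38) and Psmg1 (7.63), and at 9 d for Psmg4 (replicate 3 at 4). Wild type arrays stood out at 48 h for Psmd2 (9.58), Psmd4 (9.35) and Psme1 (9.56), and at 12 h for Psme3 (7.57). The value 4 is the floor. The core score stood apart on transgenic placebo 15 d replicate 9 (-0.31), RAD001 12 h replicate 4 (0.15) and RAD001 48 h replicate 1 (-0.09).

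The genotype effect under placebo differed between 12 h, 48 h and 15 d for 15 members, by limma with adjustment over all features. In the core the adjusted p was 0.00763 for Psma6, 0.0478 for Psmb3, 0.0117 for Psmb5 and 0.0308 for Psmb7. For the ATPases it was 0.00247 for Psmc4, 0.0455 for Psmc5 and 0.0443 for Psmc6. For the other regulatory particle subunits and the chaperone Psmd5 it was 0.0129 for Psmd4, 0.0125 for Psmd5, 0.0084 for Psmd6, 0.0324 for Psmd7, 0.00434 for Psmd13 and 0.000476 for Psmd14. It was 0.0496 for the inhibitor Psmf1 and 0.0476 for the assembly chaperone Psmg1.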

How the results depend on the processing

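Of 73 calls of single genes, 30 held in every setting, 43 were lost in at least 1 and 28 were lost when 1 array was left out. On the same probe set 0 changed sign. The 15 calls of a genotype effect by time could not, since F is never negative. Other probe sets of a gene, such as that of Psmd6 called in the opposite direction, do not enter this check. Of 157 counts under other settings 133 stayed within 1.5 times, and of 206 medians 202 within the spread between arrays. The cause of the moves below was not tested. The share of all features called in each setting is not given here, so these counts cannot set members apart from all features.

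Called members under RAD001 at 48 h numbered 5 with the 60th percentile filter, 5 with all probe sets, 5 without arrays with over 500 zeros, 5 with the planned array split as a block, 6 with the second 15 d set as a block and 6 without it. Under RAD001 at 12 h array weights gave 5. At 15 d RAD001 gave 0 with array weights, with only the compared groups, with the replicate block, without arrays rich in zeros and without the second set. The genotype count at 48 h was 17 with array weights. At 15 d it was 11 with array weights, 2 with the compared groups only, 2 with the replicate block, 0 with the second set as a block and 0 without it. The count of genotype effects that differ by time was 6 with the replicate block, 6 with the second set as a block and 6 without it. Wild type at 48 h against 12 h gave 17 with all probe sets and 17 without the second set, and the averaged genotype count was 6 from 48 h and 15 d alone. The regulatory particle median with all probe sets was 0.41 between genotypes at 12 h and 0.46 between wild type times. Under RAD001 at 6 d and 9 d it was 0.12 with the replicate block and 0.13 from 6 d alone.

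Replicate numbers were not taken as pairs: same-numbered arrays correlated from -0.25 to 0.48 and 2 of 22 pairs were over 0.1. Those 2 lay between transgenic placebo and RAD001 arrays of 15 d. Low correlation cannot show that samples were handled apart. With the replicate block the averaged genotype count was 17, and RAD001 at 48 h gave 3, of which Psmc3 was no longer a part (adjusted p = 0.0532).

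With each array left out, counts ran from 12 to 15 for the averaged genotype, 10 to 13 at 12 h, 6 to 12 at 48 h, 3 to 10 at 15 d, 7 to 17 for the effect by time, 9 to 12 between wild type times, 1 to 5 for RAD001 at 48 h, 2 to 3 at 15 d, 1 to 1 at 12 h, and 0 to 0 at 6 d and 9 d, for the RAD001 effect by time and between transgenic times. RAD001 at 48 h gave 5 without wild type 12 h replicate 1, transgenic placebo 15 d replicate 9 or RAD001 12 h replicate 4, and 1 without RAD001 48 h replicate 1. The effect by time gave 9 without wild type 12 h replicate 1, transgenic placebo 12 h replicate 4 or 15 d replicate 4, 7 without wild type 15 d replicate 1 and 8 without its replicate 3. The genotype count at 48 h was 6 without wild type 48 h replicate 2, and 7 without its replicate 4 or transgenic placebo 48 h replicate 5. At 15 d it was 3 without wild type 15 d replicate 1 and 10 without transgenic placebo 15 d replicate 2. Medians for core and regulatory particle ran from 0.12 to 0.22 and 0.18 to 0.37 between genotypes at 12 h, -0.09 to 0 and -0.15 to -0.04 at 48 h, -0.18 to 0.02 and 0.04 to 0.14 at 15 d, and 0.15 to 0.23 and 0.28 to 0.47 between wild type times. Under RAD001 they ran from -0.15 to -0.07 and -0.07 to 0.02 at 12 h, -0.10 to -0.03 and 0.06 to 0.17 at 48 h, 0.04 to 0.08 and 0 to 0.07 at 15 d, and -0.07 to -0.02 and -0.02 to 0.02 at 6 d and 9 d.

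Leaving out the smaller set of the planned array split was not run, since it holds 1 array. In the smaller table neither single placebo array was left out, since its day then has no control. Each of 6 d and 9 d has 1 placebo array. Psma1, Psmb6, Psme3 and Psmg4 are limited by single arrays listed at 0, although their mean levels lie well above the floor.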
